A study of Caenorhabditis elegans with 27 samples.

Results

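The cyp-14A genes of Caenorhabditis elegans, cyp-14A1, cyp-14A2, cyp-14A3, cyp-14A4 and cyp-14A5, were taken from the table of read counts by their symbols. They are 5 of the 46738 genes in the table, and all 5 were among the 16435 genes that passed the filter on low counts. Their counts were compared across 9 RNAi feeding groups of 3 libraries each, with attention to how each gene depended on the clones against cbp-1 and atfs-1.

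Cytochrome P450 enzymes are haem proteins of the endoplasmic reticulum that insert an oxygen atom into lipophilic substrates, among them steroids, fatty acids and foreign compounds. Most receive their electrons from a shared partner, the NADPH-cytochrome P450 reductase, which emb-8 encodes in C. elegans. Worms carry many P450 genes, often in clusters of close copies, and members of several families are induced by foreign compounds, largely in the intestine. The substrate of each cyp-14A enzyme is not assumed here.

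All worms were N2, labelled wild type, and the series design adds that they carried an hsp-6::GFP reporter, a fluorescent readout of the mitochondrial unfolded protein response. They were fed E. coli HT115, the bacterial strain used for RNAi by feeding, from the egg stage at 20 °C and were collected whole on reaching the L4 to young adult stage, 2 days later. The clones were the empty vector, cco-1 (a subunit of cytochrome c oxidase), mrps-5 (a mitochondrial ribosomal protein), cbp-1 (encoding a histone acetyltransferase like CBP and p300 of mammals) and atfs-1 (a transcription factor that enters the nucleus when mitochondrial import fails). The cco-1 and mrps-5 groups received 50% of that clone and 50% empty vector. The mixtures with cbp-1 held 50% cco-1 or mrps-5, 25% cbp-1 and 25% empty vector, and those with atfs-1 held 50% of each clone and no empty vector. The labels give no share for the cbp-1 or atfs-1 clone fed alone, so the amount of either clone cannot be matched between the single and mixed feedings. Poly(A) RNA was sequenced from whole animals, and the labels do not name separate cultures, so p-values speak only of the variation among these libraries.

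Library depth, as the sum of all gene counts, ran from 20672073 to 30938572 with a median of 27527028. Levels are given as CPM, read counts relative to the library's scaled total, after TMM scaling. From the empty vector to the targeting clone, cco-1 reads went from 302 ± 8.62 to 169 ± 1.87 CPM (SD, n = 3) and mrps-5 reads from 105 ± 3.59 to 83.2 ± 3.44 CPM. The cco-1 reads were also lower without that clone, at 215 ± 7.40 CPM under mrps-5, 222 ± 4.06 under cbp-1 and 233 ± 66.5 in the libraries labelled atfs-1. The cbp-1 reads fell from 269 ± 10.5 to 208 ± 2.23 CPM under cbp-1 alone. In the cbp-1 mixtures they stood at 276 ± 1.59 CPM with cco-1 and 275 ± 9.04 with mrps-5, not below the empty vector, but below cco-1 and mrps-5 alone (325 ± 8.45 and 321 ± 5.96; log2 -0.24 ± 0.06 and -0.22 ± 0.06, adjusted p = 0.00377 and 0.00704). The atfs-1 reads were not lower with their clone (77.7 ± 1.06 to 90.5 ± 4.05 CPM). Reads from a fed clone cannot be told from reads of the worm transcript, so every direction below that involves atfs-1 refers to libraries labelled with that clone. The libraries fell into 2 sets by the level of rpl-37, a ribosomal protein gene: the empty vector and cbp-1 libraries and 1 atfs-1 library formed a set of 7, and the other 20 formed the second set. Comparisons of the cco-1, mrps-5 and mixed groups with the empty vector therefore cross the sets, and only the atfs-1 group holds libraries of both. The falls of cco-1 and mrps-5 reads with their clones cross the sets too, and the part of the sets in them was not tested. Within the second set, cco-1 reads were 169 ± 1.87 CPM under cco-1 and 215 ± 7.40 under mrps-5. They were 223 ± 2.78 CPM with mrps-5 and atfs-1, but 158 ± 8.98 with mrps-5 and cbp-1. Comparisons of a mixture with its own mitochondrial clone, and of cbp-1 with the empty vector, lie within a set.

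The genes cyp-14A1 to cyp-14A4 are neighbours, and cyp-14A5 lies alone. On WBcel235, cyp-14A1 (X:13265041-13267355), cyp-14A2 (X:13267562-13269686), cyp-14A3 (X:13271837-13274202) and cyp-14A4 (X:13282043-13284197) lie on the minus strand within 19157 bp, and gaps of 206, 2150 and 7840 bp separate them in that order. cyp-14A5 lies on the minus strand of chromosome V (5421018 to 5423282). Each gene has 7 annotated exons, with 1533 to 1561 exonic bases. Exons 2, 4, 5 and 6 have the same length in all 5 genes (136, 125, 260 and 158 bp), and exon 3 has 467 bp except in cyp-14A4, where it has 464 bp. Short non-coding genes overlap cyp-14A2, cyp-14A3 and cyp-14A4, and none of them had more than 1 count in any library. Whether reads were split between these similar genes was not tested.

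**Figure D1:**
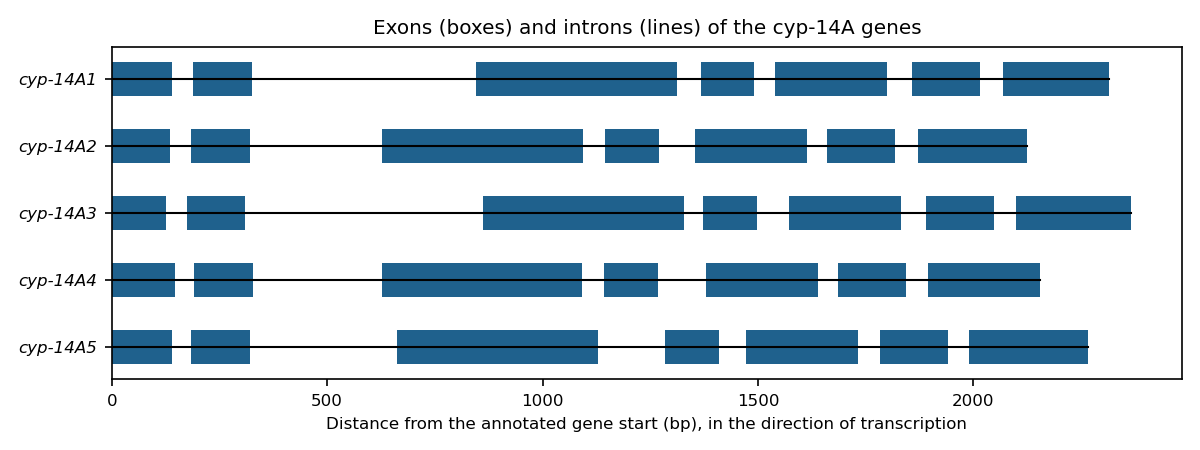
Exons (boxes) and introns (lines) of the 5 cyp-14A genes, each drawn from its annotated start in the direction of transcription (horizontal axis, bp). All genes have 7 exons, exons 2, 4, 5 and 6 match in length, and the long intron after exon 2 differs between the genes.

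The 5 genes did not move as a block. cyp-14A4 and cyp-14A1 rose under cco-1 and mrps-5 RNAi and lost most or all of that rise over the empty vector in every mixture. cyp-14A1 also fell under cbp-1 alone, and its share lost in the cbp-1 mixtures does not separate that fall. cyp-14A5 moved little with the mitochondrial clones but rose 13.5-fold to 19.9-fold wherever cbp-1 was fed, whereas cyp-14A2 fell with cbp-1 in each setting. cyp-14A3 was the lowest gene in counts, and it rose with cbp-1 alone. Per kilobase of exon, the empty vector levels ran from 8.59 ± 0.331 CPM per kb for cyp-14A5 through 5.98 ± 0.501 for cyp-14A2, 2.98 ± 0.151 for cyp-14A1 and 1.11 ± 0.0624 for cyp-14A4 to 0.278 ± 0.0365 for cyp-14A3 (SD, n = 3). Under mrps-5 RNAi the order was headed by cyp-14A4, at 39.1 ± 0.758 CPM per kb, and under cbp-1 RNAi by cyp-14A5, at 171 ± 2.27 CPM per kb.

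**Figure D2:**
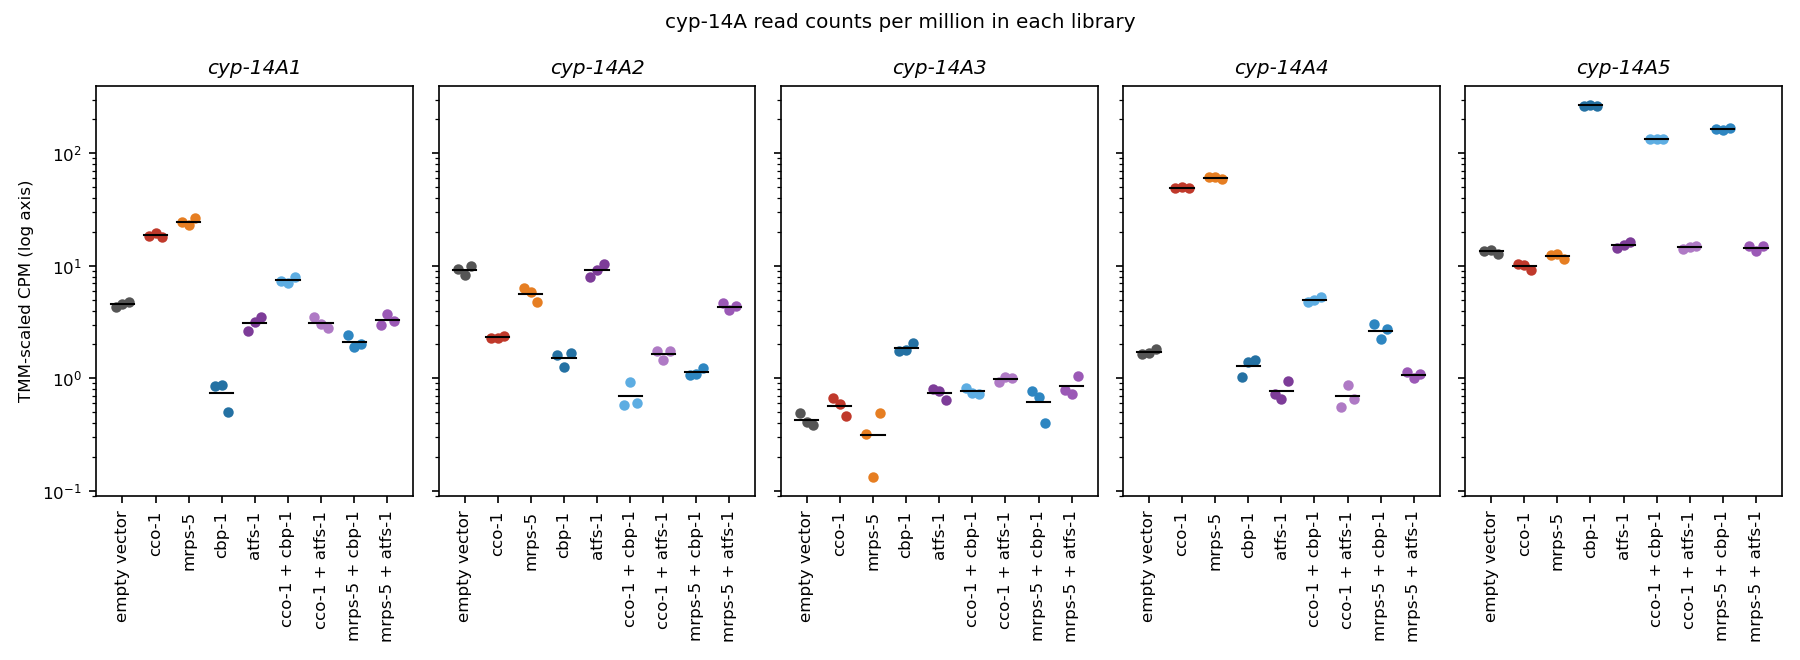
TMM-scaled CPM (log axis) of each cyp-14A gene in the 27 libraries, grouped by RNAi clone, with 1 point per library and a line at each group mean. cyp-14A4 stands at 48.8 to 61.3 CPM in the cco-1 and mrps-5 libraries and at 5.24 CPM or less in all others, while cyp-14A5 stands above 134 CPM in the groups fed cbp-1 and at 16.3 CPM or less elsewhere.

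Counts of called genes were read beside the share of all 16435 tested genes that was called (edgeR quasi-likelihood test, Benjamini-Hochberg adjusted p below 0.05). Against the empty vector, 4 of the 5 genes were called under cco-1 (beside 45.3% of all genes), 3 of 5 under mrps-5 (37.9%), 5 of 5 under cbp-1 (58.7%) and 3 of 5 in the libraries labelled atfs-1 (10.8%). The share for the libraries labelled atfs-1 moved with single libraries: 1772 genes were called in all, 4874 without atfs-1 replicate 1 and 155 to 868 without any other library of the 2 groups. Adding cbp-1 changed 4 of 5 in the cco-1 arm (47.2%) and 5 of 5 in the mrps-5 arm (42.8%). Adding atfs-1 changed 5 of 5 in each arm (20.4% and 16.8%): cyp-14A1, cyp-14A2 and cyp-14A4 were lower, and cyp-14A3 and cyp-14A5 were higher. With only 5 genes these counts do not set the family apart from the rest, and the sizes of the changes carry the description. These comparisons share their empty vector, cco-1 or mrps-5 libraries with one another.

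cyp-14A4 was measured at 1.65, 1.69 and 1.83 CPM in the empty vector libraries. It stood at 49.4, 50.2 and 48.8 CPM under cco-1 and at 61.3, 61.2 and 59.2 CPM under mrps-5. No library of either group came near the empty vector range, and the mrps-5 libraries lay above all cco-1 libraries. The log2 change was 4.84 ± 0.09 (SE) under cco-1 (adjusted p = 2.31e-35) and 5.13 ± 0.08 under mrps-5 (adjusted p = 3.31e-36), which are 28.7-fold and 35.1-fold rises. Among the 16435 genes these were the 12th and the 4th highest changes. With a term for the library set the changes were 4.73 ± 0.50 and 5.02 ± 0.50 (adjusted p = 6.57e-12 and 3.32e-12). The mrps-5 libraries exceeded the cco-1 libraries by 0.29 ± 0.05 on the log2 scale (adjusted p = 3.35e-05).

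The rise of cyp-14A4 was smaller in each of the 4 mixtures. With cbp-1 added, the level was 4.75, 4.93 and 5.24 CPM in the cco-1 arm and 3.01, 2.22 and 2.71 CPM in the mrps-5 arm. With atfs-1 added it was 0.552, 0.877 and 0.654 CPM in the cco-1 arm and 1.13, 1.01 and 1.09 CPM in the mrps-5 arm. All libraries of the atfs-1 mixtures lay below all empty vector libraries, and all libraries of the cbp-1 mixtures lay above them. The counts behind the low levels were small, at 13 to 30 per library in the atfs-1 mixtures and 41 to 48 with the empty vector. In the cco-1 arm cyp-14A4 fell, with a log2 change of -3.31 ± 0.07 with cbp-1 (adjusted p = 1.6e-33) and of -6.13 ± 0.10 with atfs-1 (adjusted p = 1.91e-36), the 4th lowest change of all genes tested there. In the mrps-5 arm the log2 change was -4.51 ± 0.08 with cbp-1 (adjusted p = 6.82e-36) and -5.81 ± 0.09 with atfs-1 (adjusted p = 3.85e-37).

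The share of the rise that a mixture lost was computed on the CPM scale, as the drop from the mitochondrial clone to the mixture over the rise from the empty vector. That rise crosses the library sets, and the SE holds only the variation within groups. For cyp-14A4, cbp-1 removed 93.2% ± 0.324 (SE, n = 3 per group) of the rise under cco-1 and 98.4% ± 0.402 of that under mrps-5. The atfs-1 mixtures lost 102% ± 0.235 and 101% ± 0.112, which are values below the empty vector level. Against the empty vector itself, cyp-14A4 was called higher in both cbp-1 mixtures (log2 1.53 ± 0.12 with cco-1 and 0.62 ± 0.14 with mrps-5) and lower in both atfs-1 mixtures (-1.29 ± 0.19 and -0.68 ± 0.17). The calls for the mrps-5 mixtures were lost with the library-set term (adjusted p = 0.417 with cbp-1 and 0.312 with atfs-1).

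Fed alone, the clones moved cyp-14A4 far less. It stood at 1.03, 1.41 and 1.44 CPM under cbp-1, where all libraries lay below the empty vector range, with a log2 change of -0.42 ± 0.16 (adjusted p = 0.0349). That call was lost when empty vector replicate 2, empty vector replicate 3 or cbp-1 replicate 1 was left out (adjusted p = 0.0551, 0.107 and 0.262), and the log2 change without that cbp-1 library was -0.27. It was also lost with upper-quartile scaling and without the filter on low counts (adjusted p = 0.0527 and 0.0558). In the libraries labelled atfs-1 it stood at 0.732, 0.656 and 0.942 CPM, also below the empty vector range, a log2 change of -1.15 ± 0.19 (adjusted p = 0.000143, and 0.0549 when only these 2 groups were fitted). The interaction terms, which subtract the effect of the clone fed alone from its effect in the mixture, were -2.89 ± 0.19 for cco-1 with cbp-1, -4.98 ± 0.29 for cco-1 with atfs-1, -4.09 ± 0.20 for mrps-5 with cbp-1 and -4.66 ± 0.28 for mrps-5 with atfs-1. All 4 passed the threshold (largest adjusted p = 9.24e-16). The cbp-1 effect was larger in the mrps-5 arm than in the cco-1 arm, by -1.20 ± 0.12 (adjusted p = 9.64e-10), while the difference between arms for atfs-1, 0.32 ± 0.22, did not pass (adjusted p = 0.792).

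**Figure D3:**
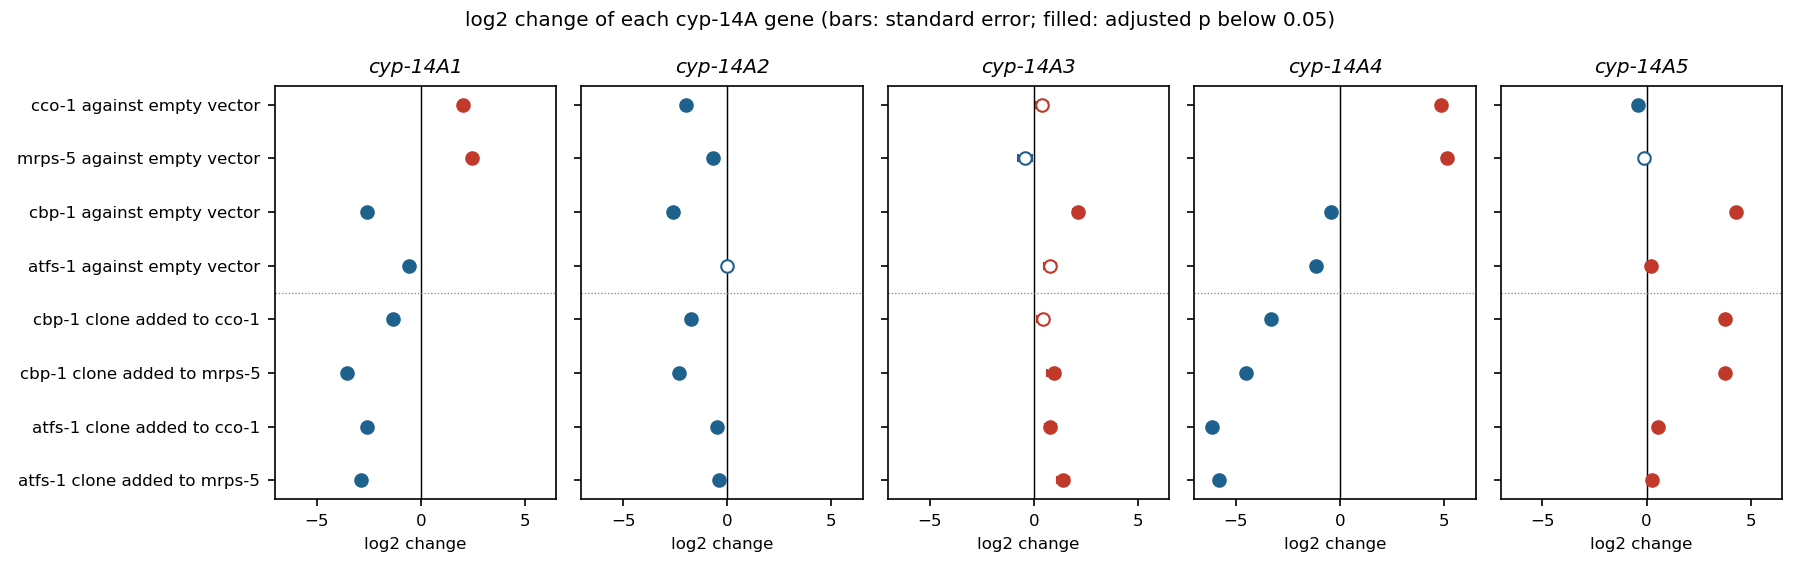
log2 change (horizontal axis) of each cyp-14A gene in 8 comparisons, with its standard error, filled where the adjusted p was below 0.05. cyp-14A4 and cyp-14A1 lie right of 0 for cco-1 and mrps-5 and left of 0 in the 4 rows where cbp-1 or atfs-1 was added, while cyp-14A5 lies near 4 in the 3 rows with cbp-1.

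cyp-14A1 had the same directions as cyp-14A4 at smaller sizes, but a different response to cbp-1. Its levels were 4.34, 4.57 and 4.80 CPM with the empty vector. They were 18.4, 19.5 and 17.9 CPM under cco-1 and 24.2, 23.1 and 26.8 CPM under mrps-5. The 3 groups did not overlap, with mrps-5 the highest of all 9 groups. The log2 change was 2.03 ± 0.09 under cco-1 (adjusted p = 2.44e-21; a library-set term gave 1.68 ± 0.25) and 2.44 ± 0.09 under mrps-5 (adjusted p = 4.01e-24, and 2.09 ± 0.25 with the term).

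The cbp-1 clone alone took cyp-14A1 to 0.850, 0.880 and 0.504 CPM, the lowest group of the 9. No library there reached any empty vector library, and the gene fell by 2.6 ± 0.17 on the log2 scale (adjusted p = 8.71e-17). Mixed with cco-1, cbp-1 left it at 7.29, 7.07 and 7.89 CPM, a log2 change of -1.33 ± 0.08 (adjusted p = 1.8e-17). Mixed with mrps-5, it left 2.44, 1.89 and 2.00 CPM, a log2 change of -3.55 ± 0.10 (adjusted p = 4.98e-28). The first of these mixtures stayed above the empty vector range and the second fell below it. Both comparisons cross the library sets. With the library-set term the first was no longer called higher (log2 0.35 ± 0.24, adjusted p = 0.271), and the second was still called lower (-1.46 ± 0.25). The cbp-1 effect differed between the arms by -2.22 ± 0.14 (adjusted p = 5.06e-15). The interaction with cbp-1 had opposite signs, 1.27 ± 0.20 in the cco-1 arm (adjusted p = 3.52e-06) and -0.95 ± 0.24 in the mrps-5 arm (adjusted p = 0.00305).

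Libraries labelled atfs-1 held cyp-14A1 at 2.62, 3.16 and 3.51 CPM, below all empty vector libraries, with a log2 change of -0.56 ± 0.13 (adjusted p = 0.00622, and 0.204 when only these 2 groups were fitted). With atfs-1 added, the level was 3.53, 3.02 and 2.81 CPM in the cco-1 arm and 2.97, 3.76 and 3.26 CPM in the mrps-5 arm. These groups overlapped one another and the group fed atfs-1 alone. The log2 changes were -2.59 ± 0.10 in the cco-1 arm (adjusted p = 1.15e-23) and -2.89 ± 0.09 in the mrps-5 arm (adjusted p = 7.85e-26). The share of the rise lost with atfs-1 was 110% ± 1.87 under cco-1 and 106% ± 1.39 under mrps-5. With cbp-1 it was 79.7% ± 2.03 under cco-1, or 73.2% without TMM scaling, and 112% ± 1.31 under mrps-5. The values with cbp-1 are relative to the empty vector, so they also hold the fall under cbp-1 alone (0.745 ± 0.209 CPM, SD). Both cbp-1 mixtures stood above cbp-1 alone (7.42 ± 0.425 CPM with cco-1 and 2.11 ± 0.293 with mrps-5), across the library sets. The rises behind all these shares cross the library sets, which the SE leaves out. With the library-set term the log2 rise under cco-1 was 1.68 ± 0.25, against 2.03 ± 0.09 without it.

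The mixtures can also be set against each other, with 25% cbp-1 clone in one and 50% atfs-1 clone in the other. In the cco-1 arm 4 of the 5 genes were called (beside 44.5% of all genes) and in the mrps-5 arm 4 of 5 (44.6%). cyp-14A4 was higher with cbp-1 than with atfs-1 in both arms, by 2.82 ± 0.14 and 1.30 ± 0.16 on the log2 scale. cyp-14A1 was higher with cbp-1 in the cco-1 arm, by 1.26 ± 0.11 (adjusted p = 1.19e-12), but lower with cbp-1 in the mrps-5 arm, by -0.66 ± 0.15 (adjusted p = 0.000337).

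cyp-14A5 followed the cbp-1 clone. Its levels were 13.7, 13.7 and 12.8 CPM with the empty vector and 265, 270 and 264 CPM with cbp-1 alone. It stood at 135, 134 and 134 CPM with cco-1 and cbp-1, and at 165, 162 and 168 CPM with mrps-5 and cbp-1. The 3 groups fed cbp-1 lay far above the other 6 and did not overlap one another. The log2 change with cbp-1 was 4.31 ± 0.05 from the empty vector (19.9-fold, adjusted p = 6.53e-43), 3.76 ± 0.05 from cco-1 (adjusted p = 1.98e-40) and 3.77 ± 0.05 from mrps-5 (adjusted p = 2.23e-40). The effect in each mixture was smaller than that of cbp-1 alone, by -0.55 ± 0.07 in both arms (adjusted p = 6.37e-08 for cco-1 and 6.61e-08 for mrps-5). The effect did not differ detectably between the arms (0.01 ± 0.07, adjusted p = 0.991).

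Without cbp-1, cyp-14A5 moved little. It stood at 10.4, 10.2 and 9.22 CPM under cco-1, below the empty vector range, a log2 change of -0.43 ± 0.06 (adjusted p = 2.1e-07). Under mrps-5 it stood at 12.4, 12.6 and 11.4 CPM (log2 -0.14 ± 0.06, adjusted p = 0.0692, and 0.0492 without empty vector replicate 3). Adding atfs-1 brought it to 14.1, 14.5 and 15 CPM with cco-1, a change of 0.55 ± 0.06 (adjusted p = 7.81e-10), and to 15, 13.6 and 15 CPM with mrps-5, a change of 0.26 ± 0.06 (adjusted p = 0.00111). The libraries labelled atfs-1 alone read 14.4, 15.4 and 16.3 CPM, with a log2 change of 0.20 ± 0.06 (adjusted p = 0.0251) that was lost with the library-set term (0.10, adjusted p = 0.951). That call was also lost without empty vector replicate 3, atfs-1 replicate 2 or atfs-1 replicate 3 (adjusted p = 0.142, 0.156 and 0.25).

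cyp-14A2, the next gene along the chromosome from cyp-14A1, went the other way under the mitochondrial clones. It stood at 9.31, 8.35 and 9.87 CPM with the empty vector. It read 2.30, 2.29 and 2.39 CPM under cco-1 and 6.35, 5.88 and 4.76 CPM under mrps-5. Both groups lay below the empty vector range and did not overlap each other. The log2 change was -1.98 ± 0.12 under cco-1 (adjusted p = 4.26e-17) and -0.69 ± 0.10 under mrps-5 (adjusted p = 9.99e-07; with a library-set term the change was -0.98). The difference between the mitochondrial clones was 1.29 ± 0.13 (adjusted p = 5.75e-10), the widest among the 5 genes.

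In every setting cbp-1 lowered cyp-14A2. Alone it gave 1.61, 1.27 and 1.69 CPM, a log2 change of -2.59 ± 0.13 (adjusted p = 1.58e-20). With cco-1 it gave 0.582, 0.921 and 0.597 CPM, a change of -1.72 ± 0.20 (adjusted p = 1.4e-09), and with mrps-5 it gave 1.07, 1.09 and 1.25 CPM, a change of -2.32 ± 0.16 (adjusted p = 6.39e-16). The mixture with cco-1 was the lowest of the 9 groups. The libraries labelled atfs-1 read 8.01, 9.22 and 10.3 CPM and overlapped the empty vector range (log2 -0.01 ± 0.09, adjusted p = 0.979). Added to cco-1, atfs-1 gave 1.74, 1.44 and 1.77 CPM (-0.50 ± 0.17, adjusted p = 0.0316), a call lost when any of the 3 cco-1 libraries or replicate 2 of the mixture was left out (adjusted p = 0.0608 to 0.147), and with DESeq2 (0.0513). Added to mrps-5 it gave 4.62, 4.05 and 4.35 CPM (-0.39 ± 0.12, adjusted p = 0.0158), a call lost without mrps-5 replicate 1, mrps-5 replicate 2 or replicate 2 of the mixture (adjusted p = 0.159, 0.0603 and 0.0777).

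cyp-14A3 had 3 to 58 counts per library, with 20 counts or fewer in 15 of the 27, so only large changes were detectable. It read 0.490, 0.412 and 0.381 CPM with the empty vector and 1.76, 1.80 and 2.05 CPM with cbp-1 alone, the highest group. These did not overlap, and the log2 change was 2.10 ± 0.23 (adjusted p = 2.3e-10). In the mixtures the effect of cbp-1 was 0.43 ± 0.26 with cco-1 (adjusted p = 0.178) and 0.96 ± 0.33 with mrps-5 (adjusted p = 0.0168), a call lost without mrps-5 replicate 2 or without replicate 1 or 2 of the mixture (adjusted p = 0.168, 0.116 and 0.0591). The effect in the cco-1 mixture was smaller than that of cbp-1 alone, by -1.67 ± 0.36 (adjusted p = 0.000452).

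Neither mitochondrial clone changed cyp-14A3 detectably (log2 0.40 ± 0.31 under cco-1 and -0.42 ± 0.36 under mrps-5, adjusted p = 0.33 and 0.402). The 3 mrps-5 libraries read 0.323, 0.132 and 0.492 CPM and spanned the empty vector range. Adding atfs-1 gave 0.789, 0.723 and 1.05 CPM in the mrps-5 arm, above all mrps-5 libraries (1.40 ± 0.30, adjusted p = 0.000591). In the cco-1 arm it gave 0.935, 1.02 and 1.01 CPM (0.80 ± 0.25, adjusted p = 0.0165), a call lost without cco-1 replicate 3 or replicate 3 of the mixture (adjusted p = 0.109 and 0.0529).

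The order of the groups differed between the genes. cyp-14A4 spanned 87.2-fold from the cco-1 with atfs-1 mixture to mrps-5, cyp-14A1 33.2-fold from cbp-1 to mrps-5, and cyp-14A5 26.8-fold from cco-1 to cbp-1. cyp-14A2 spanned 13.1-fold from the cco-1 with cbp-1 mixture to the atfs-1 group, and cyp-14A3 spanned 5.93-fold from mrps-5 to cbp-1. In the order of cyp-14A4, the cco-1 with atfs-1 mixture overlapped the atfs-1 group and the mrps-5 with atfs-1 mixture overlapped the cbp-1 group, and all other neighbours were separated. In the order of cyp-14A1, the 3 groups fed atfs-1 overlapped and the rest were separated. For cyp-14A2 the empty vector and the atfs-1 group shared the top with overlapping libraries, as did the cbp-1 group and the cco-1 with atfs-1 mixture lower down. For cyp-14A5 the empty vector and the 3 groups fed atfs-1 overlapped in sequence, and for cyp-14A3 the cbp-1 group alone was separated from its neighbour.

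The makeup of the family's reads changed with the clone. The 5 genes summed to 29.3 ± 0.481 CPM with the empty vector (SD, n = 3), of which cyp-14A4 held 5.87%. The sum was 80.9 ± 2.06 CPM under cco-1 and 103 ± 1.02 CPM under mrps-5, and cyp-14A4 then held 61.1% and 58.6%. Under cbp-1 alone the sum was 272 ± 3.44 CPM and cyp-14A5 held 98% of it. The cbp-1 mixtures summed to 148 ± 0.623 CPM with cco-1 and 172 ± 3.21 CPM with mrps-5, above both mitochondrial clones, although cyp-14A4 and cyp-14A1 had fallen. The atfs-1 mixtures summed to 21.0 ± 0.205 and 24.1 ± 0.860 CPM, below the empty vector.

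**Figure D4:**
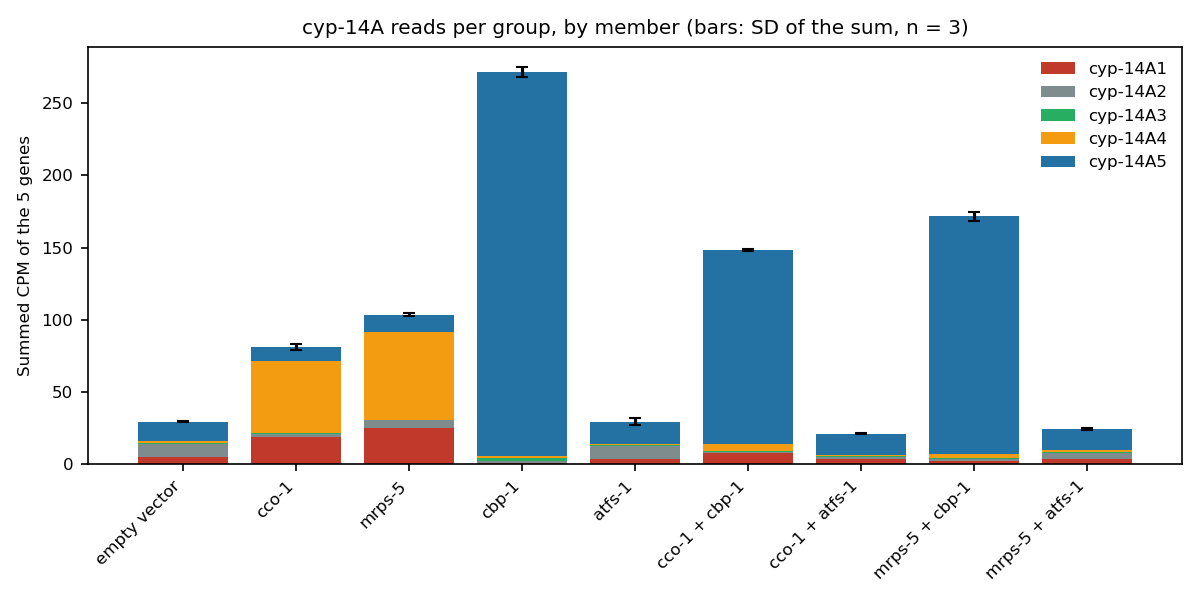
Mean summed CPM of the 5 cyp-14A genes in each group (vertical axis, starting at 0), stacked by member, with the SD of the sum over 3 libraries. cyp-14A4 makes up most of the cco-1 and mrps-5 columns (61.1% and 58.6%), and cyp-14A5 makes up 98% of the cbp-1 column.

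The mixtures were also compared with the empty vector directly, and with the sum of their parts. Of the 5 genes, 5 were called in the cco-1 with cbp-1 mixture (beside 60% of all genes), 4 in the mrps-5 with cbp-1 mixture (57%), 4 in the cco-1 with atfs-1 mixture (43.9%) and 4 in the mrps-5 with atfs-1 mixture (37.7%). With the library-set term these counts were 3 for cco-1 with cbp-1 and 2 for mrps-5 with atfs-1, and cyp-14A1 was no longer called above the empty vector in the first (log2 0.70 ± 0.10 without the term and 0.35 ± 0.24 with it, adjusted p = 0.271). The term also ended the call of cyp-14A4 in the mrps-5 with cbp-1 mixture (adjusted p = 0.417). Interaction terms were called for 5 of 5 genes with cco-1 and cbp-1 (24.9% of all genes), 3 of 5 with mrps-5 and cbp-1 (23.6%), 3 of 5 with cco-1 and atfs-1 (17%) and 2 of 5 with mrps-5 and atfs-1 (13.7%). The difference between arms in the effect of an added clone was called for 2 of 5 genes with cbp-1 (5.49%), cyp-14A1 and cyp-14A4, and for 1 of 5 with atfs-1 (3.49%), cyp-14A5 (-0.30 ± 0.08, adjusted p = 0.0347, and 0.133 without the filter on low counts). The mrps-5 libraries were higher than the cco-1 libraries for 4 of 5 genes (6.74% of all genes were higher, and 11.8% were called in either direction).

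The genes beside the family did not show these changes. K09A11.1, phf-33 and R04D3.2 lie beside or within the cluster on X, and F08F3.6 lies beside cyp-14A5. Over the single-clone and added-clone comparisons, the largest change called among them was -0.25 ± 0.08 on the log2 scale (K09A11.1 under cbp-1, adjusted p = 0.00945). phf-33, which lies between cyp-14A3 and cyp-14A4, had a mean of 0.391 CPM, too low for small changes to be detected.

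The P450 reductase gene emb-8 moved in the direction of cyp-14A4 under the mitochondrial clones and when cbp-1 or atfs-1 was added to them. It stood at 153 ± 5.13 CPM with the empty vector, 357 ± 2.31 CPM under cco-1 and 320 ± 6.39 CPM under mrps-5 (SD, n = 3). Its log2 changes were 1.22 ± 0.04 and 1.07 ± 0.04 (SE; adjusted p = 2.77e-25 and 6.4e-23). It fell in the cco-1 arm, with log2 changes of -0.89 ± 0.04 with cbp-1 and -0.90 ± 0.04 with atfs-1, and in the mrps-5 arm, with -0.95 ± 0.04 and -0.78 ± 0.04. The mixtures read 161 to 199 CPM per library against at most 159 CPM with the empty vector, a comparison that crosses the library sets. The libraries labelled atfs-1 alone read 146 CPM in the first set and 174 and 170 CPM in the second, so the mrps-5 with cbp-1 mixture (166 ± 6.61 CPM) did not stand above second-set libraries without a mitochondrial clone.

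Among 20 tested P450 partners and regulators, 12 were higher and 4 lower under cco-1, and 10 were higher and 5 lower under mrps-5. With cbp-1 alone 9 were higher and 3 lower, and in the libraries labelled atfs-1 2 were higher and 2 lower. The shares of all genes called in these comparisons were 45.3%, 37.9%, 58.7% and 10.8%, so the count under cbp-1 is about the share of all genes. Their median log2 change was 0.17 under cco-1 and 0.12 under cbp-1, beside 0.01 and 0.02 for all genes. nhr-8, a nuclear hormone receptor gene needed for resistance to foreign compounds, rose by 1.32 ± 0.07 on the log2 scale under cco-1 (adjusted p = 1.35e-19) and by 0.26 ± 0.07 under mrps-5 (adjusted p = 0.00551). Both comparisons cross the library sets. The libraries labelled atfs-1 alone read 9.40 CPM of nhr-8 in the first set and 12.2 and 12.2 CPM in the second. The rise under mrps-5 therefore cannot be told apart from a difference between the sets. nhr-176, a nuclear hormone receptor gene known for control of another P450 gene, fell when atfs-1 was added to cco-1 (-1.17 ± 0.13) and when it was added to mrps-5 (-0.60 ± 0.12). It also fell when cbp-1 was added to cco-1 (-0.63 ± 0.11, adjusted p = 1.41e-05) and to mrps-5 (-0.70 ± 0.12, adjusted p = 5.17e-06). With cbp-1 alone, zip-2, a bZIP factor gene of the response to infection, rose by 1.87 ± 0.04 (adjusted p = 8.66e-34), and elt-7, an intestinal GATA factor gene, rose by 0.85 ± 0.09 (adjusted p = 1.08e-10).

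**Figure D5:**
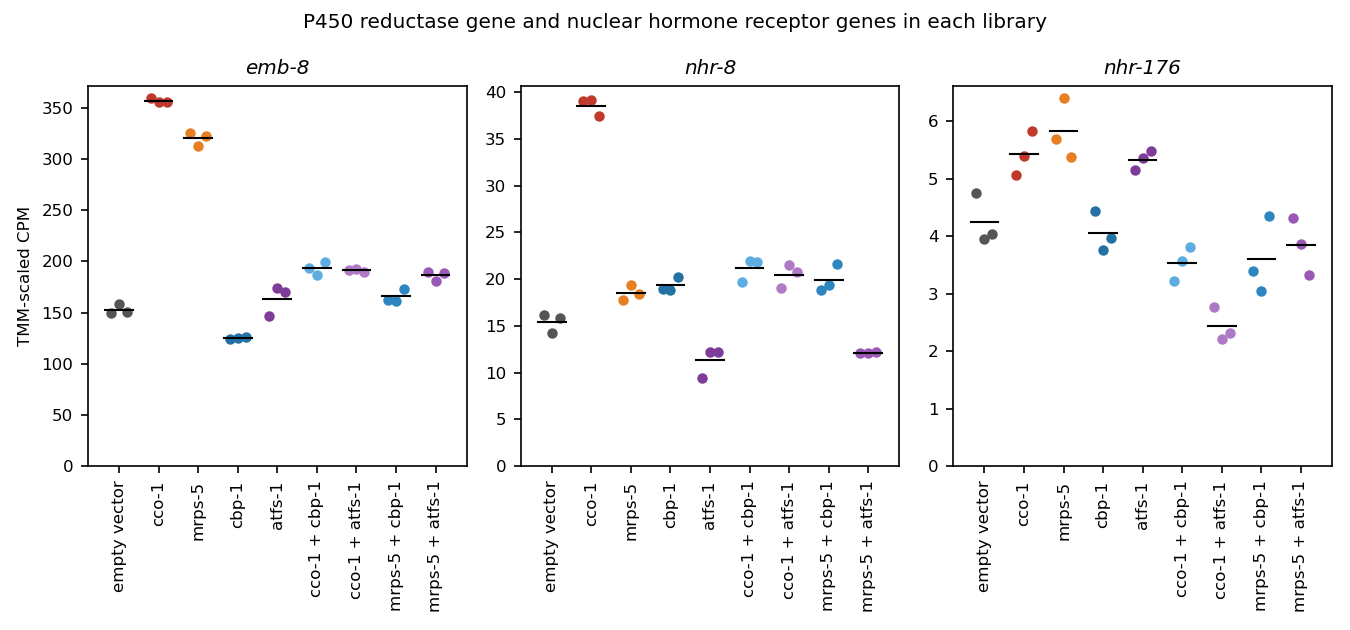
TMM-scaled CPM (vertical axes, starting at 0) of emb-8, nhr-8 and nhr-176 in the 27 libraries, with 1 point per library and a line at each group mean. emb-8 is highest under cco-1 and mrps-5 (357 and 320 CPM), nhr-8 is highest under cco-1 (38.6 CPM), and nhr-176 is lowest in the cco-1 with atfs-1 mixture (2.43 CPM).

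The other 76 P450 genes in the table, of which 64 were tested, split in direction. Under cco-1 16 were higher and 20 lower, under mrps-5 19 and 15, and under cbp-1 28 and 18, beside 45.3%, 37.9% and 58.7% of all genes called in either direction, with median log2 changes of -0.07, 0.07 and 0.15 beside 0.01, 0.00 and 0.02 for all genes. Those raised by at least 1 on the log2 scale were 10 under cco-1, of which 8 were lower with cbp-1 added and 9 with atfs-1 added. Under mrps-5 they were 11, of which 9 were lower and 1 higher with cbp-1 added, and 10 were lower with atfs-1 added. Genes chosen as high in the cco-1 or mrps-5 libraries are compared here with those same libraries, which favours a fall. Of all genes raised by the same amount, 54% were lower with cbp-1 and 43.7% with atfs-1 in the cco-1 arm, and 56.6% and 57.4% in the mrps-5 arm. cyp-33C8 rose from 10.2 ± 0.403 to 203 ± 8.53 CPM under cco-1 (log2 4.31 ± 0.05), fell to 177 ± 2.87 CPM with cbp-1 added (-0.20 ± 0.04, adjusted p = 1.01e-05) and to 14.5 ± 0.286 CPM with atfs-1 added (-3.81 ± 0.05). In the mrps-5 arm it fell from 117 ± 3.19 to 64.6 ± 3.06 CPM with cbp-1 (-0.86 ± 0.04, adjusted p = 1.14e-21) and to 11.8 ± 0.440 CPM with atfs-1 (-3.31 ± 0.05). cyp-13A5 rose under cco-1 (2.98 ± 0.11), under mrps-5 (1.93 ± 0.13) and under cbp-1 alone (2.96 ± 0.11), and fell when cbp-1 was added to either mitochondrial clone. Other P450 genes with large changes fell under both mitochondrial clones. Under cco-1 and mrps-5 the log2 changes were -2.75 ± 0.12 and -1.04 ± 0.10 for cyp-25A1. They were -2.63 ± 0.09 and -1.31 ± 0.08 for cyp-35C1, and -2.11 ± 0.11 and -1.33 ± 0.11 for cyp-35A2. cyp-33E2 rose under both (1.78 ± 0.09 and 1.77 ± 0.09). With cbp-1 added to cco-1, cyp-35C1 and cyp-35A2 rose (1.15 ± 0.10 and 1.71 ± 0.11), while cyp-25A1 and cyp-33E2 fell (-3.09 ± 0.25 and -1.61 ± 0.08).

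Markers of the intestine moved with the cbp-1 clone. The summed level of the 6 intestinal marker genes in the table, from a list of 7, was 1129 to 1180 CPM in the empty vector libraries, 746 to 773 CPM under cbp-1, 707 to 735 CPM with cco-1 and cbp-1 and 606 to 660 CPM with mrps-5 and cbp-1. It was 1461 to 1525 CPM under cco-1 and 1290 to 1325 CPM under mrps-5. With atfs-1 added the sums were 1508 to 1536 CPM in the cco-1 arm and 1318 to 1395 CPM in the mrps-5 arm. With cbp-1 alone 4 of the 6 were called lower and 0 higher (median log2 -0.58), a count near the 58.7% of all genes called there. With cbp-1 added 5 were lower and 0 higher in the cco-1 arm (beside 47.2% of all genes). In the mrps-5 arm 5 were lower and 1 higher (42.8%). The list split under the mitochondrial clones, with 3 higher and 3 lower under cco-1 (median log2 0.02) and 2 higher and 3 lower under mrps-5 (-0.04). The sum of 6 hypodermal markers was 1109 to 1178 CPM with cbp-1 against 1620 to 1704 CPM with the empty vector, but 3 of these markers were called higher and 1 lower (median log2 0.27). Of 6 germline markers 4 were called lower and 0 higher with cbp-1 alone (median log2 -0.14). Of 7 oocyte and embryo markers 5 were lower and 0 higher (-0.15), beside the same 58.7% of all genes. Other lists went up or split with cbp-1 alone, beside that same share. Of 7 sperm markers 5 were higher and 0 lower (median log2 0.25), and of 6 neuron markers 2 were higher and 0 lower (0.14). Of 6 muscle markers 2 were higher and 3 lower (-0.18). No marker on these lists was at 0 in all libraries. In whole-worm RNA, fewer cells of a type and less RNA per cell cannot be told apart, and the part of these shifts in the falls of cyp-14A1, cyp-14A2 and cyp-14A4 with cbp-1 was not tested. The part of these shifts in the rises of cyp-14A5 and cyp-14A3 with cbp-1 alone, and the tissue that expresses each cyp-14A gene, were not tested either.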

How the data were processed

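The authors deposited 1 table of gene counts for 27 libraries. The submitters' processing notes name STAR 2.6.0a, HTSeq 0.10.0 and the build WBcel235; trimming, annotation release and strand setting are not given in the sources used here. Summary lines (8.71% to 17.0% of each library) were left out. Genes were filtered with filterByExpr (minimum count 10), scaled by TMM and fitted in edgeR 4.0.16 (R 4.3.3) with robust quasi-likelihood over all 27 libraries and 1 coefficient per group; tests were two-sided, and calls used a Benjamini-Hochberg adjusted p below 0.05 over all tested genes. Positions and exon lengths came from an Ensembl annotation of WBcel235. The members and gene lists were chosen with earlier results of these data known. Other P450 genes were named by size of change (the 4 largest called under cco-1 or mrps-5, with a mean of at least 5 CPM), partners by adjusted p (at most 4 per comparison, absolute log2 change at least 0.5), and like genes by correlation (3 per member); the text describes some of these. Alternatives were other scalings, filters, DESeq2 1.42.0, fits on only the compared groups, a replicate block, a library-set term and leaving out each library. The code was tested on simulated data. The library sets were read from rpl-37, so the term rests on the atfs-1 group alone.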

Additional observations from a re-analysis of the deposited data

Results flagged for a closer look

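Several effects of the added clones differed from the effects of the same clones fed alone, by interaction terms that passed the edgeR threshold (log2 scale). For cco-1 with cbp-1 these were 1.27 for cyp-14A1, 0.87 for cyp-14A2, -1.67 for cyp-14A3, -2.89 for cyp-14A4 and -0.55 for cyp-14A5; the value for cyp-14A2 was not called without replicate 2 of the mixture (0.61, adjusted p = 0.163). For cco-1 with atfs-1 they were -2.02 for cyp-14A1, -4.98 for cyp-14A4 and 0.36 for cyp-14A5. For mrps-5 with cbp-1 they were -0.95 for cyp-14A1, -4.09 for cyp-14A4 and -0.55 for cyp-14A5. For mrps-5 with atfs-1 they were -2.32 for cyp-14A1 and -4.66 for cyp-14A4.

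Some effects also differed between the arms, as the effect in the mrps-5 arm minus that in the cco-1 arm. The cbp-1 effect differed by -2.22 for cyp-14A1 and by -1.20 for cyp-14A4, with 2 of 5 genes called beside 5.49% of all genes. The atfs-1 effect differed by -0.30 for cyp-14A5, with 1 of 5 called beside 3.49%, and that call was lost under several alternatives.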

How the results depend on the processing

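No called value of the 5 genes changed sign under any alternative run, and 17 values called neither way had the opposite sign. With only the compared groups fitted, 0 of the 5 genes were called for atfs-1 against the empty vector, beside 3 with all groups. With the library-set term 3 genes were called, not 5, for the cco-1 with cbp-1 mixture against the empty vector, and 2, not 4, for the mrps-5 with atfs-1 mixture. The mrps-5 with cbp-1 mixture lost its call of cyp-14A4 with that term (adjusted p = 0.417). Over all genes that term lowered the calls for cco-1 from 7449 to 2691, for mrps-5 from 6225 to 1602 and for atfs-1 from 1772 to 54. It lowered the calls of the mixtures against the empty vector from 9863 to 5948 and from 7210 to 2812 in the cco-1 arm (cbp-1, atfs-1), from 9368 to 5265 and from 6196 to 1352 in the mrps-5 arm, and those of the atfs-1 interactions from 2801 to 1824 and from 2258 to 1295. Without atfs-1 replicate 1 these interactions had 5128 and 4827 calls, and with only the compared groups fitted the atfs-1 group had 28 calls and its interaction with mrps-5 had 1306. The difference between arms in the atfs-1 effect (cyp-14A5) was called for 0 genes with no filter, with DESeq2, with only the compared groups and with the replicate block (adjusted p = 0.133, 0.0585, 0.0651 and 0.0514), and for 0 to 1 when single libraries were left out. Leaving out single libraries gave 3 to 5 called genes for atfs-1 added to cco-1, with 3 without cco-1 replicate 3. The replicate block ended no other call of the 5 genes. Libraries sharing a number did not deviate together (median r = -0.0117, range -0.283 to 0.418 over 108 pairs, beside 0.00569 for different numbers), so the numbers were not taken as pairs. Without TMM scaling, cbp-1 removed 73.2% of the cco-1 rise of cyp-14A1 and 92.0% of that of cyp-14A4. The causes were not tested. Depth limits cyp-14A3 most, with a median of 20 counts per library.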

Other observations

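For each cyp-14A gene the 3 genes with the most similar log2 CPM over the 27 libraries were listed, among genes with a mean of at least 5 CPM. The libraries fall into 9 groups that share clones, so these correlations are descriptions. For cyp-14A4 they were cuc-1, a copper chaperone gene (Pearson r = 0.98), slc-17.4, a solute carrier gene (0.97), and tsfm-1, a mitochondrial translation elongation factor gene (0.97). cuc-1 stood at 25.7 ± 2.35 CPM with the empty vector, 79.0 ± 5.1 CPM under cco-1, 41.2 ± 1.76 CPM with cbp-1 added and 23.5 ± 1.22 CPM with atfs-1 added (SD, n = 3). Its log2 change in the cco-1 arm was -0.94 ± 0.05 with cbp-1 and -1.75 ± 0.06 with atfs-1 (SE), a smaller range than that of cyp-14A4.

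For cyp-14A1 the most similar genes were F58G6.9 (r = 0.96), H28G03.1 (0.95) and clec-4, a C-type lectin gene (0.95). F58G6.9 stood at 15 ± 1.22 CPM with the empty vector, 110 ± 6.07 CPM under cco-1, 136 ± 4.25 CPM under mrps-5 and 3.18 ± 0.0249 CPM under cbp-1 alone. For cyp-14A2 they were daf-36, an oxygenase gene of dafachronic acid synthesis (0.98), nol-5 (0.97) and F09B12.3 (0.97).

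For cyp-14A5 they were gpdh-2, a glycerol-3-phosphate dehydrogenase gene, C18H9.6 and F07H5.3 (r = 0.99 for each). gpdh-2 stood at 177 ± 5.51 CPM with the empty vector and 426 ± 2.54 CPM under cbp-1 alone. C18H9.6 stood at 15.8 ± 1.04 and 135 ± 1.74 CPM. For cyp-14A3 the values were lower, at 0.82 for nlp-40, a neuropeptide gene, 0.81 for C18B2.4 and 0.80 for D1044.1. Between members, r was 0.83 for cyp-14A1 with cyp-14A4, 0.50 for cyp-14A3 with cyp-14A5, -0.71 for cyp-14A2 with cyp-14A5 and -0.73 for cyp-14A1 with cyp-14A3.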
